A study of Homo sapiens with 12 samples.

Results

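The messenger RNAs of 10 subunits of RNA polymerase II, POLR2A, POLR2B, POLR2C, POLR2D, POLR2E, POLR2F, POLR2G, POLR2H, POLR2I and POLR2L, were followed through the free, monoribosomal (mono) and polyribosomal (poly) fractions of WT and CBFB_KO cells. They are 10 of the 56632 genes measured. They were selected because POLR2A, the largest subunit, was high in the free fraction of CBFB_KO cells, so the difference between CBFB_KO and WT in that fraction is described here without a test, as is every comparison that uses the CBFB_KO free libraries. All 10 genes passed the filter on low counts, as did 16275 genes in all.

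The cells were MCF10A, a non-tumorigenic human mammary epithelial line. WT is the line without the knockout, and CBFB_KO carries a CRISPR knockout of CBFB. Knockout cells were isolated as single-cell colonies, and the sources used here do not say how many colonies the libraries came from. Both were treated with cycloheximide (100 µg/ml, 30 min), which holds ribosomes on the mRNA, and lysates were spread on 10 to 50% sucrose gradients. The RNA of each fraction was sequenced in 2 libraries per genotype (6 conditions, 12 libraries), and the labels do not say whether 2 libraries came from separate cultures, so a p-value measures the spread between these libraries, which may be technical. Free RNA carries no full ribosome, the mono fraction carries 1 ribosome, and the poly fraction carries more.

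RNA polymerase II transcribes the protein-coding genes of the nuclear genome. POLR2A and POLR2B, the largest and the second largest subunit, form the catalytic cleft, and the smaller subunits build the assembly platform, the stalk and the surface that the polymerase shares with RNA polymerases I and III. POLR2A alone has a long tail, the carboxy-terminal domain, made of repeats of one heptad whose phosphorylation marks the steps of initiation, elongation and RNA processing. CBFB is best known as the partner of the RUNX transcription factors.

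The stretch of POLR2A that encodes part of this domain is printed because it is what sets the largest subunit apart from the other 9. It holds 8 consecutive repeats out of a run of 15, lies in exon 29 of 29 at chr17:7513170-7513337 on the + strand (GENCODE 29, GRCh38, bases 5305 to 5472 of a transcript of 6751 bases), and capitals mark the first codon, for tyrosine, of each repeat. The deposited values were made on hg19, and no value was tied to these coordinates.
POLR2A: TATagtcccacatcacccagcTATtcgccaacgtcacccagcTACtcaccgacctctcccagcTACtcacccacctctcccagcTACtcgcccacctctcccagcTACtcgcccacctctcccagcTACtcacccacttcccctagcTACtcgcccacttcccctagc

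Several libraries stood apart. The share of mitochondrially encoded RNA was 71.6% and 87.2% in free RNA of CBFB_KO against 1.26% to 20.8% in the other 10 libraries, which left 13568143 and 5247878 counts on other genes there and at least 43279862 elsewhere. The 2 CBFB_KO poly libraries were nearly alike, with a mean chi-square per gene of 2.26 against 128.3 to 957.1 between the libraries of the other 5 conditions, and they were kept as 2 samples, with results also given for their average as 1. CBFB itself, at 1.06 to 6.63 FPKM in the 12 libraries, was not called in any fraction (log2 change of 0.49 in free, -0.71 in mono and -0.72 in poly RNA), so its mRNA level does not check the knockout labels. The basal epithelial markers KRT5 and ITGB4 were found in every library at 157.8 and 9.75 FPKM or more, and PTPRC (leukocytes), CDH5 (endothelium) and COL3A1 (fibroblasts) were at 0 in all 12.

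Levels of different genes were compared in FPKM, fragments scaled to transcript length and library total, and levels of 1 gene across libraries in TMM-normalised counts (TMM-CPM, scaled to a fixed library total), which correct for the composition of each library. In WT free RNA the 2 large subunits were the scarcest per length, POLR2A (chromosome 17) at 1.26 and 1.36 FPKM and POLR2B (chromosome 4) at 0.84 and 1.55 FPKM. These ranges overlapped, and every smaller subunit lay above them. POLR2D, a subunit of the stalk, came next at 37.1 and 37.3 FPKM, followed by POLR2C, the assembly subunit, at 51.9 and 86.1 FPKM. The other 6 lay between 100.7 FPKM (POLR2G) and 345.7 FPKM (POLR2F). In that order the libraries of POLR2E, POLR2I and POLR2H overlapped with their neighbours, as did those of POLR2L and POLR2F.

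In WT poly RNA, POLR2L, a small shared subunit, was the most abundant member at 688.2 and 678.3 FPKM, and POLR2A was the least abundant at 5.80 and 12.95 FPKM. POLR2H, also shared by the 3 polymerases, stood at 463.4 and 370.2 FPKM and POLR2F, a further shared subunit, just below without overlap, at 364.4 and 318.8 FPKM. The summed FPKM of the 10 members was 1274 and 1552 in WT free, 3370 and 3417 in WT mono and 2079 and 2271 in WT poly RNA, and POLR2A made up at most 0.62% of that sum in these 6 libraries.

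**Figure D1:**
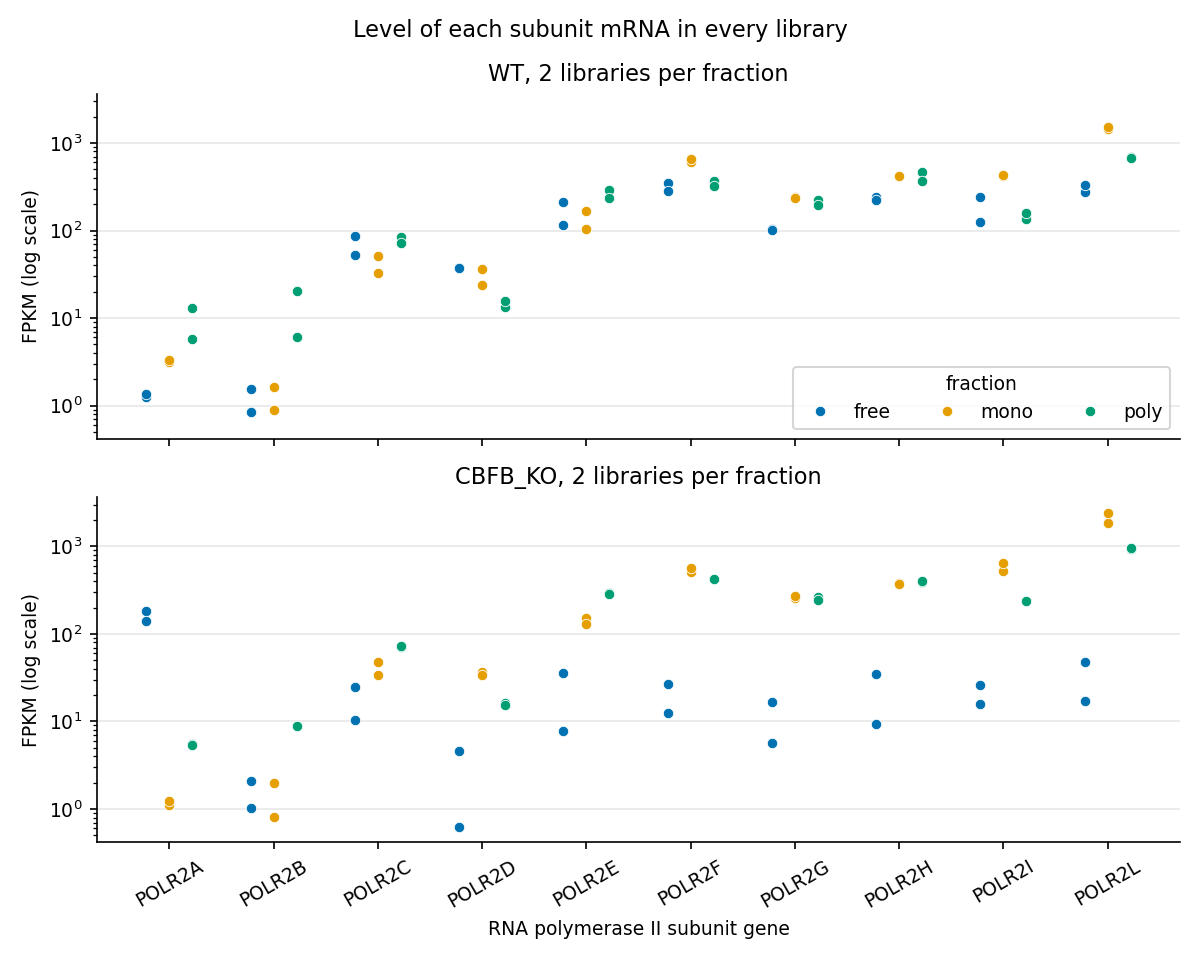
FPKM (log scale) of the 10 subunit genes in each library, with WT above and CBFB_KO below and 2 points per fraction. In the CBFB_KO free libraries (blue, lower panel) POLR2A stood at 139.5 and 182.7 FPKM, above every smaller subunit, whereas in WT it was among the 2 lowest members in every fraction.

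POLR2A was measured at 7.34 and 7.19 TMM-CPM in WT free, 9.92 and 15.3 in WT mono and 23.3 and 46.7 in WT poly RNA. In CBFB_KO it was measured at 2295 and 3583 TMM-CPM in free, 7.06 and 10.5 in mono and 20.6 and 20.3 in poly RNA. The 2 CBFB_KO free libraries lay far above the other 10. The fitted log2 change of CBFB_KO over WT in free RNA was 8.66 (SE 0.61), which is 404.6-fold, and 242 of the 16275 genes tested (1.49%) had a larger one.

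The count behind this value was large in spite of the small number of non-mitochondrial counts. RSEM assigned 54035 and 35427 reads to POLR2A in free RNA of CBFB_KO cells, compared with 514 and 559 in free RNA of WT cells. Among genes outside the mitochondrial genome POLR2A took rank 22 and rank 9 by count in CBFB_KO free RNA and rank 5571 and rank 5933 in WT free RNA. Its share of the non-mitochondrial counts was 0.40% and 0.68% in the former and 0.00093% and 0.0011% in the latter. In bulk fractions such as these, more molecules per cell and a larger part of the recovered RNA cannot be told apart.

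POLR2B, which closes the catalytic cleft opposite POLR2A, was the only other member with a higher value in CBFB_KO free RNA. It was measured at 2.17 and 3.65 TMM-CPM in WT free and at 11.2 and 13.7 in CBFB_KO free RNA, a log2 change of 2.09 (SE 0.63). Its 2 CBFB_KO libraries lay above both WT libraries on this scale, but in FPKM, which is not corrected for the mitochondrial share, the ranges overlapped (0.84 and 1.55 against 2.09 and 1.03). Scaled by library size alone its log2 change was 0.34, where the median of all genes stood at -1.57 instead of 0.04, so relative to all genes it stayed higher.

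The 8 remaining subunits had lower values in CBFB_KO free RNA. POLR2D, which forms the stalk with POLR2G, was measured at 67.4 and 59.2 TMM-CPM in WT and 17.4 and 4.55 in CBFB_KO, the lowest log2 change of the 10 (-2.51, SE 0.55), and CBFB_KO replicate 2 held the fewest reads of any member in any library (45). POLR2F, a shared subunit, was measured at 147.1 and 118.9 in WT and 31.9 and 25.4 in CBFB_KO (-2.21, SE 0.38). Both genes had libraries of the 2 genotypes far apart. For the shared subunits POLR2H, POLR2E and POLR2L the log2 changes were -2.02, -1.77 and -1.62, for POLR2G -1.66, and for POLR2I, which takes part in proofreading, -1.58. POLR2C was the exception, at 109.9 and 57.3 TMM-CPM in WT and 69.7 and 35.1 in CBFB_KO (-0.67, SE 0.46), with overlapping libraries. At the threshold used for the tests (edgeR's adjusted p under 0.05), 2 members were past it as higher and 7 as lower, where 24.2% and 18.1% of all tested genes (42.3% together) were, and since the members were chosen on this comparison nothing is read from these counts. The median over the 9 smaller members was -1.66, and POLR2A lay 10.3 log2 units above it.

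**Figure D2:**
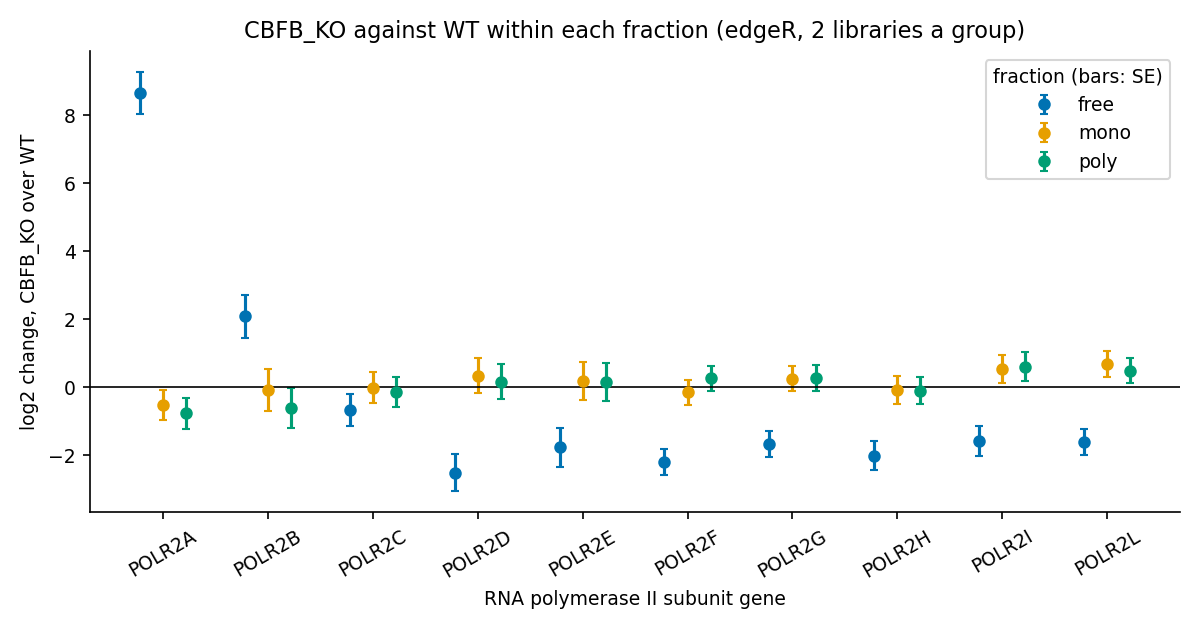
Fitted log2 change of CBFB_KO over WT (edgeR, 2 libraries a group) for each subunit gene in the free, mono and poly fractions, with bars of 1 SE. POLR2A stands at 8.66 in the free fraction, where 8 of the smaller subunits lie below 0, and all 10 genes lie between -0.77 and 0.68 in the mono and poly fractions.

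The same values were also compared inside single libraries, where no scaling between libraries enters. For free RNA this restates the values on which the members were chosen and is no separate evidence. POLR2A held 0.081% and 0.11% of the members' summed FPKM in WT free RNA and 45.4% and 63.4% in CBFB_KO free RNA. The log2 ratio of POLR2A to the median smaller subunit was -6.92 ± 0.70 (SD, n = 2) in WT free and 3.35 ± 0.77 (SD, n = 2) in CBFB_KO free RNA. In poly RNA it was -4.58 ± 0.95 in WT and -5.55 ± 0.06 in CBFB_KO, and in mono RNA -6.21 ± 0.07 and -7.82 ± 0.07 (SD, n = 2 each). The mono values depend on the transcript length that RSEM gave POLR2A, which was shorter in the WT mono libraries, and in the fit on counts POLR2A lay -0.72 log2 units from the median smaller subunit in CBFB_KO over WT mono RNA. The 2 CBFB_KO free libraries were thus the only ones in which POLR2A exceeded the median smaller subunit.

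**Figure D3:**
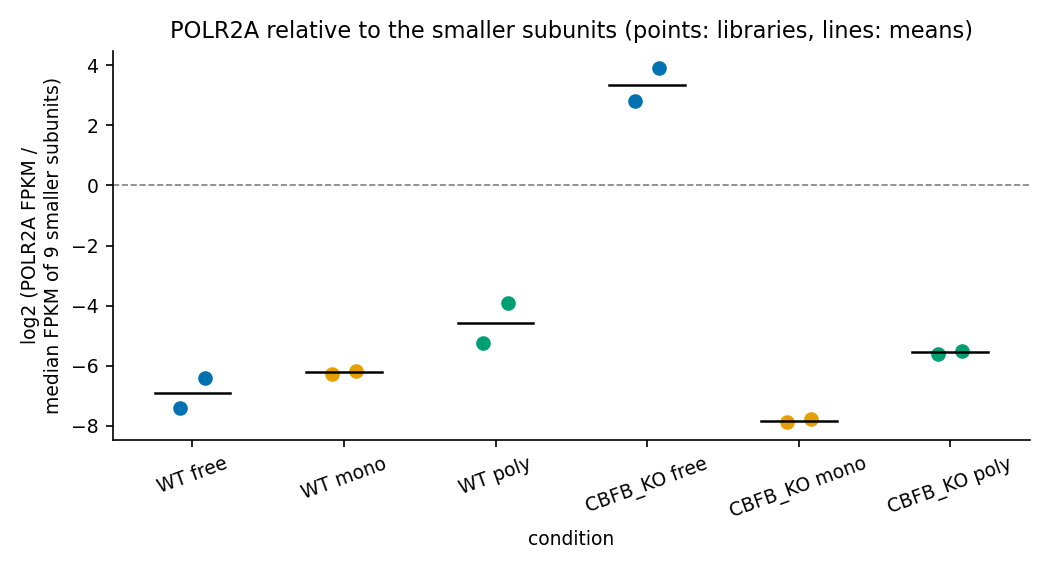
The log2 ratio of POLR2A FPKM to the median FPKM of the 9 smaller subunits in each of the 12 libraries (points), with the mean of each condition (lines). The 2 CBFB_KO free libraries lie at 2.81 and 3.90, and the other 10 libraries lie between -7.88 and -3.90.

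POLR2A is a long transcript, and change in CBFB_KO free RNA went with length. Over the 16275 genes the Spearman correlation of the log2 change with transcript length was 0.44, and with GC content it was -0.41 over the 15648 genes that had one, as a description over genes that share the same libraries. Only 2.83% of tested genes were longer than POLR2A, whose median length was 6675 bases against 1880 over all genes, while its GC content of 56.1% was exceeded by 30.6%. With the length trend of each library taken out as an offset, POLR2A still had a log2 change of 5.92, POLR2B of 1.09 and the median smaller subunit of -0.84. The part of length or of the mitochondrial share in the remainder was not tested.

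Whether the genotypes differed on ribosomes was tested between mono and between poly libraries, which the choice of members did not use. The spread in these tests was estimated over all 12 libraries, the CBFB_KO free ones included. In mono RNA none of the 10 members was called by edgeR, where 0.147% of all tested genes were, and none had an unadjusted p under 0.05. The log2 change was -0.52 (SE 0.44) for POLR2A and 0.68 (SE 0.38) for POLR2L, each with an edgeR adjusted p of 1. The 2 genotypes' mono libraries did not overlap for 2 members (POLR2I and POLR2L), where this held for 29.9% of all tested genes. DESeq2 called 0 of the 10 as well.

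In poly RNA, too, edgeR called 0 of the 10 members, with 0 at an unadjusted p under 0.05 and 0 by DESeq2, where edgeR called 0.19% of all tested genes. POLR2A had the lowest log2 change of the 10, -0.77 (SE 0.44), with the CBFB_KO libraries at 20.6 and 20.3 TMM-CPM below both WT libraries at 23.3 and 46.7, and POLR2B followed with -0.61 (SE 0.60). POLR2I had the highest, 0.60 (SE 0.42), and POLR2L stood at 0.49 (SE 0.38), with CBFB_KO libraries at 292.9 and 293.3 TMM-CPM and WT libraries at 221.8 and 196.3. The libraries of the genotypes did not overlap for 6 members, where this held for 49.7% of all tested genes. With the 2 CBFB_KO poly libraries averaged, the count stayed at 0. With 2 libraries against 2, the exact permutation test of a single gene cannot go below p = 0.33, whatever the size of the difference, so that test could not decide. Among the 10 members the log2 change in poly RNA ran down with transcript length (Spearman correlation -0.90, over genes of the same libraries), where over all tested genes the correlation was -0.17.

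In the mono fraction POLR2A read differently per length than by count. It stood at 3.14 and 3.28 FPKM in WT and 1.10 and 1.25 FPKM in CBFB_KO, without overlap, whereas the TMM-CPM values of 9.92 and 15.3 against 7.06 and 10.5 overlapped. RSEM gave it a mean transcript length of 3260 and 4355 bases in the WT mono libraries and 6749 bases in both CBFB_KO mono libraries, and 6414 to 6749 bases in the other 8 libraries. The annotated transcripts of this gene run from 245 to 6751 bases, so the FPKM of the WT mono libraries was computed over shorter models.

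How the subunits were spread between 1 and more ribosomes was tested within each genotype. In WT, POLR2A and POLR2B were higher in poly than in mono RNA, and POLR2D, POLR2F, POLR2I and POLR2L were lower, which made 6 of 10 members called where 20.6% of all tested genes were (11% as higher and 9.68% as lower). POLR2B rose from 1.56 and 4.42 TMM-CPM in WT mono to 10.9 and 38.8 in WT poly RNA, a log2 change of 3.06 (SE 0.65, edgeR adjusted p = 0.0088). POLR2A rose by a log2 change of 1.47 (SE 0.45, edgeR adjusted p = 0.039), with every poly library above every mono library. This call for POLR2A was lost in 8 of 16 alternative settings, including the one with averaged CBFB_KO poly libraries and each of the 4 in which libraries of 1 genotype and number were left out.

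The 4 members that fell include the shortest transcripts. POLR2I was measured at 162.2 and 188.7 TMM-CPM in WT mono and 36.6 and 35.1 in WT poly RNA (log2 change -2.29, SE 0.44, edgeR adjusted p = 0.0059). POLR2L was measured at 779.6 and 915.2 in mono and 221.8 and 196.3 in poly RNA (-2.02, SE 0.39, edgeR adjusted p = 0.0060). In both, the fractions were far apart. POLR2F fell by 1.76 on the log2 scale (SE 0.38) and POLR2D by 1.94 (SE 0.53), while POLR2G (-1.09), POLR2H (-0.89), POLR2E (0.13) and POLR2C (0.04) were not called. Leaving out either WT replicate leaves 1 library in each WT arm. Most or all calls over all tested genes were then lost, as were most or all of those among the members. Nothing is read about the members from this loss. With library size alone as the scale, which moved the median of all genes to 0.81, the 4 decreases kept their sign and were no longer called.

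**Figure D4:**
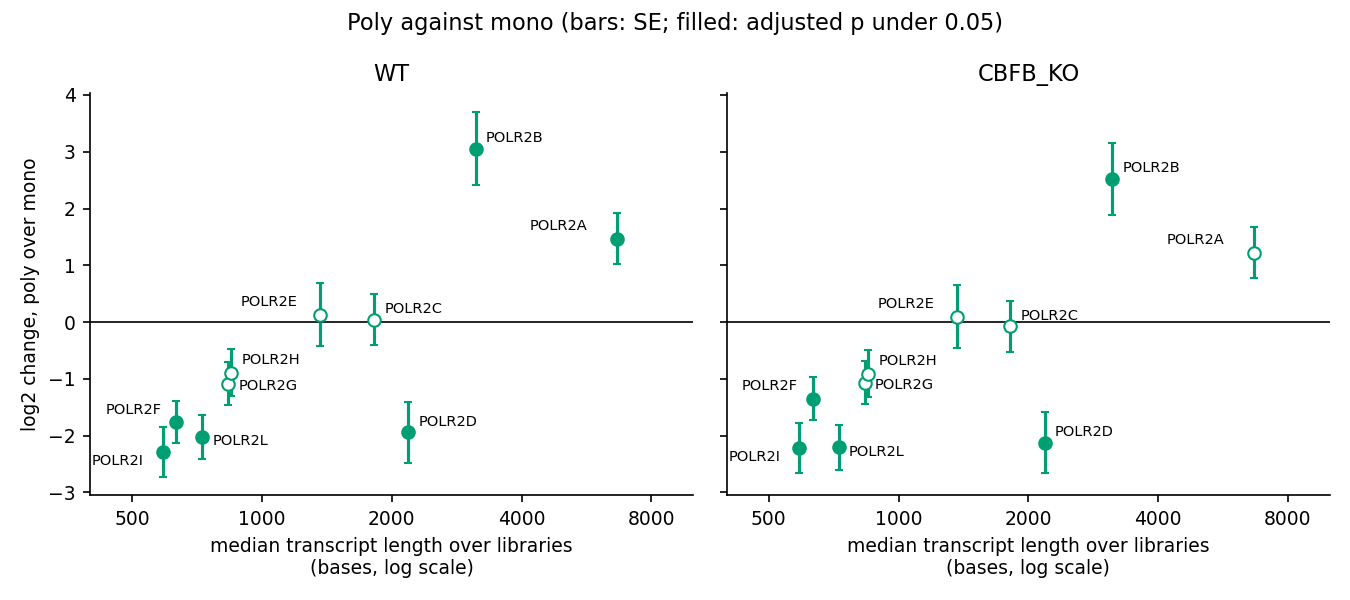
Fitted log2 change of poly over mono RNA in WT (left) and CBFB_KO (right) against the median transcript length of each subunit gene over the 12 libraries (bases, log scale), with bars of 1 SE. Filled points have an edgeR adjusted p under 0.05, and in both genotypes POLR2A and POLR2B lie above 0 and POLR2D lies at -1.94 and -2.12 at a median length of 2182 bases, apart from the short genes.

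In CBFB_KO, 1 member was called as higher and 4 as lower in poly than in mono RNA. POLR2B rose from 2.53 and 3.12 TMM-CPM in mono to 16.4 and 16.03 in poly RNA (log2 change 2.53, SE 0.64, edgeR adjusted p = 0.022), and POLR2I fell from 201.1 and 305.1 to 54.2 and 54.6 (-2.22, SE 0.44, edgeR adjusted p = 0.0096). POLR2L (-2.21), POLR2D (-2.12) and POLR2F (-1.35) fell as well, and POLR2A had a value of 1.22 (SE 0.45) that missed the threshold (edgeR adjusted p = 0.083). These were 5 of 10 members, where 16.9% of all tested genes were called (8.2% as higher and 8.66% as lower). With the nearly identical poly pair averaged, which leaves 1 library in that arm, the log2 changes stayed close to these. They stood at 2.54 for POLR2B, -2.21 for POLR2I, -2.20 for POLR2L, -2.11 for POLR2D and -1.33 for POLR2F. Nearly all calls over all tested genes were lost in that fit and without either CBFB_KO replicate, those of the members included. Nothing is read about the members from this loss. Whether the likeness of the pair or the lone library ended the calls was not tested.

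The difference between the genotypes in the poly to mono ratio was itself tested, and 0 of the 10 members were called by edgeR or by DESeq2, with 0 at an unadjusted p under 0.05. Over all tested genes 0% were called, and 164 of 16275 had an unadjusted p under 0.05. That share lies below the 0.05 expected with no difference, so the test was conservative, and 0 calls do not show equal ratios. The log2 differences, CBFB_KO minus WT, ran from -0.53 (POLR2B, SE 0.85) to 0.41 (POLR2F, SE 0.52), and that of POLR2A was -0.25 (SE 0.62).

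The poly to mono change went with transcript length among the members, with a Spearman correlation of 0.77 over the 10 genes in each genotype, and over all tested genes it was 0.50 in WT and 0.52 in CBFB_KO. These are descriptions over genes measured in the same libraries. POLR2D departed from that order, since its transcripts had a median length of 2182 bases. With the length trend taken out, POLR2B (higher) and POLR2D (lower) were the members still called in WT, and POLR2D and POLR2L (both lower) in CBFB_KO.

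Against free RNA, WT members were compared with libraries that also entered the choice of members, so the values are given without p-values. In poly over free RNA the log2 change was 3.09 for POLR2B (SE 0.65), 2.27 for POLR2A (SE 0.46) and -1.94 for POLR2D (SE 0.53), and these 3 were past the threshold, where 22% of all tested genes were (14% as higher and 7.99% as lower). The other 7 lay between -0.86 (POLR2I) and 0.62 (POLR2L). In mono over free RNA POLR2L (2.64, SE 0.40) and POLR2G (1.53, SE 0.38) were past the threshold as higher, where 6.98% of all tested genes were (5.55% as higher and 1.43% as lower). When the fit was made on the WT mono and free libraries alone, 0 of the 10 were, and 0 of all 14910 genes tested. Nothing is read about the members from that fit.

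In CBFB_KO the order against free RNA was turned for POLR2A. Its log2 change was -7.17 (SE 0.58) in poly over free and -8.39 (SE 0.61) in mono over free RNA, given without a test. The smaller subunits had a median of 1.89 in poly over free RNA, with all 9 above 0, from 0.39 (POLR2B) to 2.73 (POLR2L). In mono over free RNA 8 of the 9 were above 0, up to 4.94 for POLR2L, and POLR2B stood at -2.14. The log2 difference between the genotypes in the poly to free ratio was -9.43 (SE 0.73) for POLR2A, -2.70 (SE 0.86) for POLR2B and between 0.53 (POLR2C) and 2.67 (POLR2D) for the other 8. Every pairing of WT libraries and every pairing of CBFB_KO libraries had opposite signs for 4 of the 10 members in poly over free (POLR2A, POLR2D, POLR2F and POLR2I) and for 1 in mono over free RNA (POLR2A), where this held for 19.8% and 11% of all tested genes. These comparisons share the CBFB_KO free libraries with those above.

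The 5 POLR2 genes outside the 10 members had negative values in free RNA, as 8 of the smaller subunits did, and 3 of them were past the threshold, where 18.1% of all tested genes were as lower. POLR2J, the assembly partner of POLR2C, had a log2 change of -2.40 in CBFB_KO over WT free RNA, POLR2K, a shared subunit, of -0.90, and POLR2M, which encodes a polymerase-associated protein, of -1.28. POLR2J2 (0 to 7.91 FPKM) and POLR2J3 (-1.82) are close copies of POLR2J, and reads may have been split among the 3. None of the 5 was called in mono or poly RNA between the genotypes. In WT, 4 of the 5 were lower in poly than in mono RNA (9.68% of all tested genes), with POLR2J at -2.71 (SE 0.54, edgeR adjusted p = 0.0071), POLR2K at -2.55, POLR2M at -1.90 and POLR2J3 at -1.49.

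The genes of factors that work with the polymerase were counted in the same way. None of them was called between the genotypes in mono or poly RNA, where 0.147% and 0.19% of all tested genes were, and their counts in free RNA stand beside 24.2% of all tested genes past the threshold as higher and 18.1% as lower. Of 29 general transcription factor genes, which place the polymerase at promoters, 9 were past the threshold as higher and 5 as lower in free RNA, from TAF10 (-2.01) to TAF2 (3.92), with a median log2 change of 0.54. Of 30 Mediator genes, the bridge to activators, 9 were higher and 8 lower, from MED9 (-2.72) to MED23 (4.93), with a median of -0.31. Of 32 genes of elongation and modification of the carboxy-terminal domain, 12 were higher and 6 lower, with a median of 0.68. CCNK, the cyclin of the kinases CDK12 and CDK13 that phosphorylate that domain, had the highest value (5.07), and CDK9, the kinase that releases paused polymerase, the lowest (-1.98). Of 10 genes for assembly of the polymerase, 1 was higher (RPAP3, 4.33) and 4 were lower, down to GPN2 (-2.28). POLR2A, at 8.66, lay above every gene of these lists, whose members were lower and higher beside a median of 0.04 over all tested genes.

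The genes whose pattern over the 12 libraries was most like that of POLR2A, by the Pearson correlation of log2 TMM-CPM, were AFF1 (0.995), PTPN23 (0.992), NHSL1 (0.992), MDC1 (0.990) and RERE (0.990). The 12 points share fractions and the 2 CBFB_KO free libraries, which lay far from the rest. Their log2 changes in CBFB_KO over WT free RNA were 7.78, 6.41, 6.38, 6.91 and 6.51, and none was larger than that of POLR2A. Among the members, the correlation of POLR2A was 0.51 with POLR2B and between -0.90 (POLR2H) and -0.63 (POLR2C) with the other 8. Those 8 correlated with one another with a median of 0.82 over 28 pairs (0.42 to 0.98).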

How the data were processed

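Libraries of 3 sucrose gradient fractions, from WT and CBFB_KO cells, were made with an mRNA kit per the labels, whereas the general RNA-seq methods of the study name rRNA removal. Per the labels, the authors used Trimmomatic, STAR and RSEM on hg19 (versions not given in the sources used here). The deposited expected counts are reads per gene as estimated by RSEM, not normalized. RSEM, as run by the authors, divided FPKM and TPM by effective length and scaled them to the library. Replicates were not pooled. Some tables carry hand-typed notes, which were not used.

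Expected counts (41050325 to 63886726 per library) were rounded and fitted over all 12 libraries with edgeR 4.0.16 (R 4.3.3, limma 3.58.1): quasi-likelihood test, TMM factors, filterByExpr, 1 mean per condition, Benjamini-Hochberg threshold 0.05 over 16275 genes. SEs are the log2 change over the root of the F statistic. DESeq2 1.42.0, limma on log2(FPKM + 1) or log2(FPKM + 0.1), other scalings and left-out libraries were alternatives. Symbols were matched by Ensembl ID for 49995 genes and by transcript ID for 1493. GTF2H5 and TAF9 were not matched. In simulated data for WT poly against mono (15786 genes), 14% of 4-fold and 61% of 16-fold changes were recovered, and 5.06% of calls were false. Each simulated gene had the same mean share in every library, except 100 genes per fold size that were changed in WT poly alone. The spread was that estimated over all 12 libraries. The real comparison called far more genes, so its rates may differ. Recovery between the genotypes was not simulated. Named genes were the members, CBFB, the other POLR2 genes, the highest and lowest free-fraction change of each list (and any list gene called between genotypes in mono or poly RNA), and the 5 genes most like POLR2A. Members and lists were chosen with earlier results of these data known. Figures were drawn with matplotlib 3.10.9.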

Additional observations from a re-analysis of the deposited data

Results flagged for a closer look

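For 3 smaller subunits and POLR2A, a fraction's log2 difference from free RNA had one sign in every pairing of WT libraries and the opposite sign in every pairing of CBFB_KO libraries. Of the 10 members, 4 did so in poly over free and 1 in mono over free RNA, where 19.8% and 11% of all tested genes did. The difference between the genotypes was not tested, since it uses the CBFB_KO free libraries on which the members were chosen. For POLR2A the poly over free difference in log2 TMM-CPM was 1.67 to 2.70 in WT and -7.46 to -6.80 in CBFB_KO, and the means differed by -9.31. Its mono over free difference was 0.44 to 1.09 in WT and -8.99 to -7.77 in CBFB_KO, and the means differed by -9.14. The smaller subunits differed the other way in poly over free RNA: the CBFB_KO mean minus the WT mean was 2.98 for POLR2D, 2.49 for POLR2F and 2.08 for POLR2I. The CBFB_KO values for POLR2D ran from 0.06 to 2.03, and the 2 pairings with free replicate 1 were the small ones.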

How the results depend on the processing

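In mono RNA, in poly RNA and in the poly to mono ratio, CBFB_KO against WT gave 0 called members in every alternative run. The counts within a genotype moved more, and the cause of each change below was not tested. Brackets after each count give the genes called higher and lower over all genes tested, which were 16275 unless stated. For WT mono against free the main fit called 2 members (903 and 233). DESeq2 called 4 (1464 and 861), median-ratio factors 1 (539 and 236) and library size alone 0 (68 and 37). No filter gave 1 (1159 and 441 of 24497), the 4 libraries alone 0 (0 and 0 of 14910) and the length offset 1 (390 and 320). Limma gave 1 with pseudocount 1 (588 and 419 of 12877) and 1 with 0.1 (378 and 177 of 12877). For WT poly against mono the main fit called 6 (1784 and 1576). Library size alone gave 2 (2766 and 270) and the length offset 2 (1388 and 979). Limma gave 3 with pseudocount 1 (3247 and 737 of 12877) and 2 with 0.1 (2297 and 434 of 12877). For CBFB_KO poly against mono the main fit called 5 (1335 and 1409). Library size alone gave 2 (2520 and 161), the 4 libraries alone 8 (3991 and 3591 of 14643) and the length offset 2 (1026 and 780). Limma gave 2 with pseudocount 1 (2877 and 520 of 12877) and 2 with 0.1 (2021 and 257 of 12877). For WT poly against free the main fit called 3 (2273 and 1301). In all these comparisons, averaging the CBFB_KO poly pair or leaving out a replicate lowered the member counts or kept them. The calls over all tested genes moved as well. Where that left 1 library in an arm, it was assumed to vary like the other groups.

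In free RNA the log2 change of POLR2A was 6.86 by library size alone, 5.92 with the length offset, and 6.12 and 6.825 by limma with pseudocounts 1 and 0.1. The smaller subunits' median was -3.24, -0.84, -3.25 and -3.38 in the same settings. POLR2A minus that median was 6.76 with the length offset and 9.37 by limma with pseudocount 1. For the genotype difference in the poly to free ratio it was -7.66 and -10.27 in these 2 settings (main -11.37), and in the mono to free ratio -7.35 with the length offset (main -11.14). For CBFB_KO poly against free it was -6.61 with the length offset (main -9.05) and -9.52 to -8.35 with a replicate left out. For CBFB_KO mono against free it was -6.77 with the length offset, -10.49 by limma with pseudocount 1 (main -11.35) and -12.14 to -10.71 with a replicate left out. The log2 change of POLR2F in CBFB_KO poly over mono RNA turned from -1.35 to 0.008 with the length offset. Of 256 refits of the 16 single calls, 166 kept the call, 89 lost it with the same sign and 1 changed sign.

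The replicate numbers were shared by the genotypes, and the 2 libraries' differences correlated between genotypes at 0.05 in free, 0.17 in mono and 0.01 in poly RNA, so the samples may share only a number. With the replicate block 2 members were called in WT mono against free (881 higher and 269 lower over all tested genes). In WT poly against free 3 were called (2337 and 1364), in WT poly against mono 6 (1955 and 1671) and in CBFB_KO poly against mono 6 (1559 and 1517). With the gradient as block the counts were 1 (475 and 117), 3 (2071 and 1073), 6 (1671 and 1380) and 4 (1306 and 1174). Within a fraction that block could not be fitted.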

Other observations

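The subunits of RNA polymerases I and III, which make ribosomal and transfer RNA, were measured in the same fractions. Of 18 such genes 5 were past the edgeR threshold as higher and 4 as lower in CBFB_KO over WT free RNA, from POLR1H (log2 change -2.51) to POLR3GL (3.17), with a median of 0.71, where 24.2% and 18.1% of all tested genes were past it as higher and lower. In this list, too, no gene was called between the genotypes in mono or poly RNA. The largest subunit of RNA polymerase I, POLR1A, was at a log2 change of 2.88 (SE 0.47) and that of RNA polymerase III, POLR3A, at 0.82 (SE 0.51) in free RNA, against 8.66 for POLR2A. In WT poly over mono RNA 4 of the 18 were called as higher and 2 as lower (POLR1D and POLR3G), where 11% and 9.68% of all tested genes were. POLR1A (2.21, SE 0.46, edgeR adjusted p = 0.0083), POLR1B (2.07), POLR3A (1.74) and POLR3B (2.56) were the 4 that rose. These 4 genes and the 2 that fell were named after their values were seen. The 4 are the largest and the second largest subunits of the 2 enzymes. Over all tested genes the poly to mono change in WT went with transcript length (Spearman correlation 0.50), and the part of length in these 4 was not tested.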
